A study of Mus musculus with 12 samples.

Results

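Immediate early response genes are transcribed within minutes of a signal reaching the cell, before any new protein is needed, and most of their transcripts decay quickly. Growth factor receptors act on them through the RAS, RAF, MEK and ERK kinases, which switch on SRF with its ELK partners at serum response elements, while CREB acts at cyclic AMP response elements. Their products include the AP-1 subunits of the FOS and JUN families, the zinc finger factor EGR1 and phosphatases that switch the kinases off again. The 9 genes described here were chosen by name: Egr1, Fos, Fosb, Jun, Junb, Dusp1, Ier2, Ier3 and Atf3. They were chosen with earlier results of these data known. All 9 were among the 47643 genes of the count table, and 8 of them were among the 14629 genes that passed a filter on low counts and were tested. Fosb did not pass that filter, and its reads are given without a fold test.

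Poly(A) RNA was sequenced from E14, a mouse embryonic stem cell line of 129/Ola background, with 2 libraries in each of 6 groups. The groups were a Dicer knockout (KO), the complemented line 41585, labelled as processing neither miRNAs nor siRNAs, the complemented line SOM, the complemented line 41584, labelled as resembling WT, the complemented line 41589, labelled as unable to process siRNAs, and WT. Dicer is the RNase that makes mature miRNAs and siRNAs from their precursors. All lines were kept on gelatin with serum, LIF and puromycin, so these are levels in growing cells and not a response to a timed stimulus. The sources used here do not give the meaning of SOM or of the 3 numbers, the deleted part of Dicer1, the sequence put back or the number of clones behind a line. Whether libraries of one group were separate cultures is not stated, so a p-value here reflects no more than the spread between libraries, which may be technical.

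The libraries held 5348401 to 10428509 counted reads. Dicer1 was at 28.5 and 44.0 CPM (the reads of a gene relative to the TMM-scaled library total) in KO and 29.1 and 39.2 CPM in 41585. It was at 105 and 215 CPM in SOM, at 42.3 and 55.0 CPM in 41584 and at 40.2 and 27.8 CPM in 41589, against 197 and 214 CPM in WT. By reads assigned to mouse Dicer1, 41584, the line labelled as resembling WT, was nearer to KO than to WT. Since the sequence put back is not given, it is not known whether its transcripts are among these reads. On the second principal component of log2 CPM, both SOM libraries and replicate 2 of 41584 and of 41589 stood apart from the other libraries. Several results for the 9 genes are given with and without those of 41584 and 41589, and results for the other gene lists only with them. All 10 embryonic stem cell markers were detected in every library. Their summed level was 7353 to 8018 CPM in KO and 41585, against 6064 to 7262 CPM in the other groups. Fibroblast markers summed to 9.54 to 19.2 CPM in KO and 41585 and 13.7 to 55.1 CPM in the other groups. All 9 of them had reads, and 3 passed the filter on low counts. Of these 3, 2 were called lower in KO and 41585 against the other groups. The collagen gene Col3a1, also on this list, had no read in 11 of the 12 libraries. In bulk RNA, fewer cells that transcribe a gene and less RNA per cell cannot be told apart.

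Many of the most abundant miRNAs of mouse embryonic stem cells share a seed, the bases that pair with a target, and these miRNAs need Dicer. They are shown because the lines differ in their processing. No miRNA was measured in these libraries. Capitals mark the seed, bases 2 to 8, in the mature sequences from RefSeq (GRCm38.p6), all carrying the seed AAGUGCU.
mmu-miR-302b-3p: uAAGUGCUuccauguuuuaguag
mmu-miR-302d-3p: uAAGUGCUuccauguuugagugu
mmu-miR-291a-3p: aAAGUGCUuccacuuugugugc
mmu-miR-294-3p: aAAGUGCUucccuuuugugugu
mmu-miR-295-3p: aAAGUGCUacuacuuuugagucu

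The word that pairs with this seed, AGCACTT, occurred in 2 of the 9 genes' 3' UTRs, those of Fosb and Ier3. It was present in 17.72% of the 12882 UTRs of tested genes. The word shifted by 1 base, GCACTTT, was present in 1 of the 9, Atf3, and in 14.64% of UTRs. Egr1, Fos, Jun, Junb, Dusp1 and Ier2 held neither word, which says only that these letters are not in the GENCODE M21 UTR that was read. TATTTAT, a word of the AU-rich elements through which many early response transcripts are degraded, was present in 6 of the 9 genes and in 30.45% of UTRs. Ier3 held 4 copies, Dusp1 3, Fos 2, and Fosb, Jun and Atf3 1 each. Examples of both kinds follow, with the word in capitals and 10 transcript bases on each side.
Fosb, seed match: gttcccaaaaAGCACTTatatctatta
Ier3, seed match: tccgtcttccAGCACTTcaactctgta
Atf3, shifted seed match: gatgttaatgGCACTTTtgtcttgtag
Fos, AU-rich word: gttttcaattTATTTATtaagatggat
Jun, AU-rich word: tgcttgtgcaTATTTATaatagcgttc
Dusp1, AU-rich word: tttttaccttTATTTATttttgtgtag

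RefSeq promoters of 300 bases, 250 before to 50 after the start site (GRCm38.p6), matched 7 of the 9 genes by symbol; Egr1 and Ier2 had no entry. The windows of Fos and Dusp1 are printed as examples, with 5' to 3' on the gene's strand. The levels of both genes, and of Jun and Fosb, did not overlap between KO and 41585 and the other lines. The window of Jun, not printed, held none of the words described here. Capitals mark the full cyclic AMP response element TGACGTCA, its shorter form TGACG outside it, and the TATA word TATAAA.
Fos, chr12:85473640-85473939, plus strand: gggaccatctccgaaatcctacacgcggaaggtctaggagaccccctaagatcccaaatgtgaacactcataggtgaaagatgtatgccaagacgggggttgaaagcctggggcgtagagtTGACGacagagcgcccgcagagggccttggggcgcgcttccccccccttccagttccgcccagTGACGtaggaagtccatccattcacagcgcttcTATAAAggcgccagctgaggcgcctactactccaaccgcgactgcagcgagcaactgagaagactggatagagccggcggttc
Dusp1, chr17:26508423-26508722, minus strand: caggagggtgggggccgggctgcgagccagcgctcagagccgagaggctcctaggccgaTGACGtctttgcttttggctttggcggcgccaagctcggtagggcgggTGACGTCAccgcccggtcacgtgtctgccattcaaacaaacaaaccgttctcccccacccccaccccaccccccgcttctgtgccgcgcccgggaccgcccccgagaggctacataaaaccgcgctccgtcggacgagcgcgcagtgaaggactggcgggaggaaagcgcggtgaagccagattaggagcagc

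Searched on both strands, TGACGTCA was found in 1 of the 7 windows, at -143 to -136 from the start site of Dusp1, and in 1.79% of 32851 promoters. The shorter form outside it was found in 5 of 7 windows (Fos, Fosb, Junb, Dusp1 and Atf3). TGACG at any place, also inside the full element, was found in 20.812% of promoters. The AP-1 word, TGA and TCA with 1 base between them, was found in 0 of 7 (7.808% of promoters), and the CArG box, the core of the serum response element, in 0 of 7 (1.629%). The EGR word GCGNGGGCG was found in 1 of 7, Fosb (5.552%), where it lies close to the shorter cyclic AMP form. The TATA word was found in 2 of 7 (13.616%), at -33 to -28 in Fos and at 1 to 6, from the start site on, in Junb. These matches are a description of letters in a window and were not tested for binding. Bases outside the windows were not searched, and neither were the promoters of Egr1 and Ier2, which had no entry. The absence of the CArG box or the AP-1 word from these windows therefore does not show that the genes lack such an element.

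Per kilobase of exon, the mean level over the 12 libraries was highest for Egr1, at 20.1 CPM per kb. Dusp1 followed at 10.1 and Ier2 at 8.92 CPM per kb. Ier3 was at 4.53, Fos at 3.92, Atf3 at 2.93 and Jun at 2.70 CPM per kb. Junb, at 0.636, and Fosb, at 0.0720 CPM per kb, were near the limit of what these depths count. All later levels are in CPM, which compares one gene between libraries and not one gene with another.

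**Figure D1:**
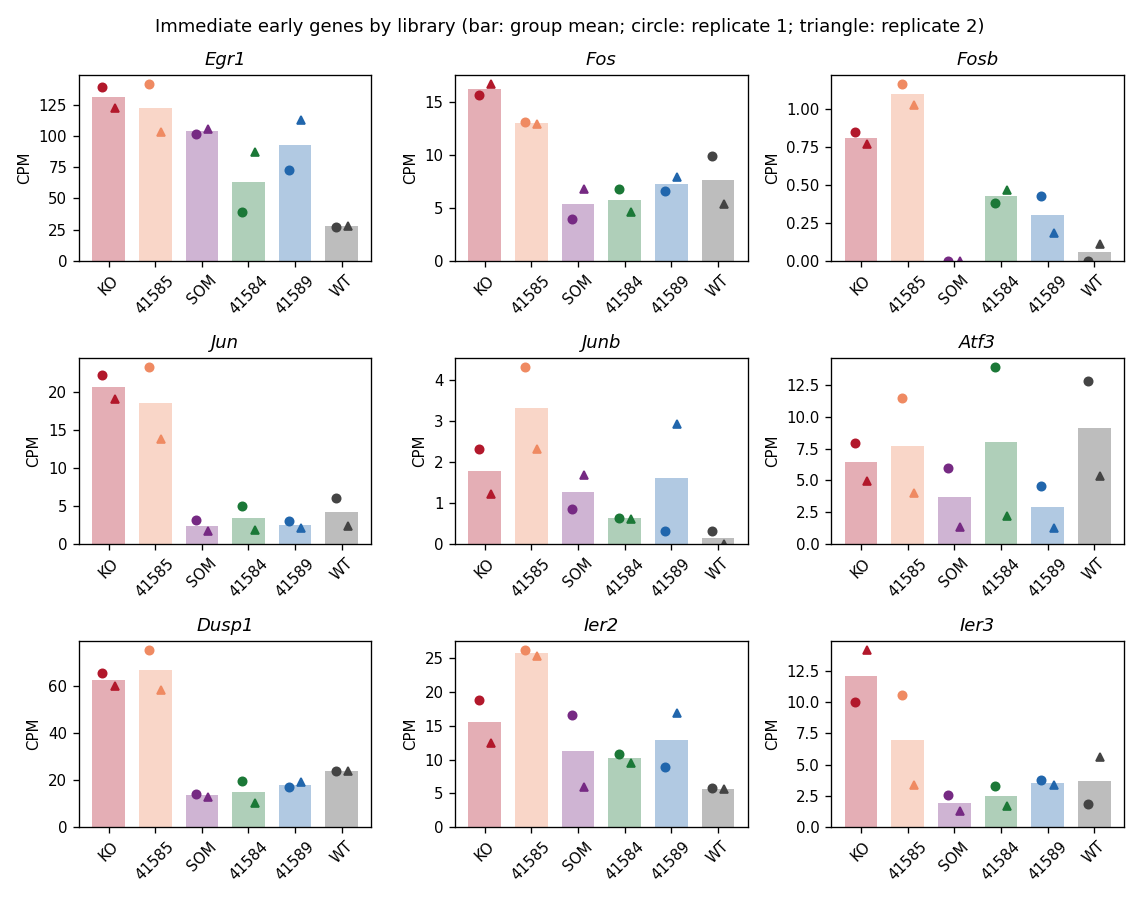
CPM of each of the 9 genes, 1 panel per gene, with groups from KO and 41585 on the left to WT on the right; bars are means of 2 libraries, circles replicate 1 and triangles replicate 2. Jun, Fos, Fosb and Dusp1 are higher in all 4 KO and 41585 libraries than in any other library, Egr1 is lowest in the 2 WT libraries, and Atf3 shows no such separation.

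KO and 41585, the Dicer knockout and the line labelled without miRNA processing, carried more mRNA of most of these genes than the other lines. Jun was 6.37-fold and Dusp1 3.76-fold higher when KO and 41585 were set against the other 4 groups together. Ier3, Fos, Ier2, Egr1 and Junb were also higher, and Atf3 did not pass the test. In that comparison 7 of the 8 tested genes were called higher at a Benjamini-Hochberg adjusted p under 0.05 (edgeR quasi-likelihood test), where 17.6% of all tested genes were called higher. The count was also 7 without replicate 2 of 41584 and of 41589, where 25.2% of tested genes were called higher. The median log2 fold of the 8 genes was 1.43, beside -0.01 over all tested genes. Since the genes were chosen with earlier results of these data known, these contrasts describe the set and do not test it.

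The pooled comparison is made of pairs that can be read apart. Between KO and WT 3 of the 8 genes were called higher, Egr1, Jun and Dusp1, where 7.29% of tested genes were. Between 41585 and 41584, which share no library with the first pair, 2 were called higher, Jun and Dusp1, where 7.65% were. None was called lower in either, where 5.9% and 5.07% of tested genes were. The median log2 fold of the 8 genes was 1.57 for KO against WT and 1.39 for 41585 against 41584. When replicate 2 of 41584 and of 41589 was left out of the fit, the low-count filter and the scaling were also redone, and 15281 genes were tested. More genes were then called for KO against WT, both of the 8 and over all tested genes. The log2 folds for KO against WT were then 2.25 for Egr1, 2.33 for Jun and 1.39 for Dusp1. Those for 41585 against 41584 were 1.66 for Egr1, 1.89 for Jun and 1.78 for Dusp1.

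**Figure D2:**
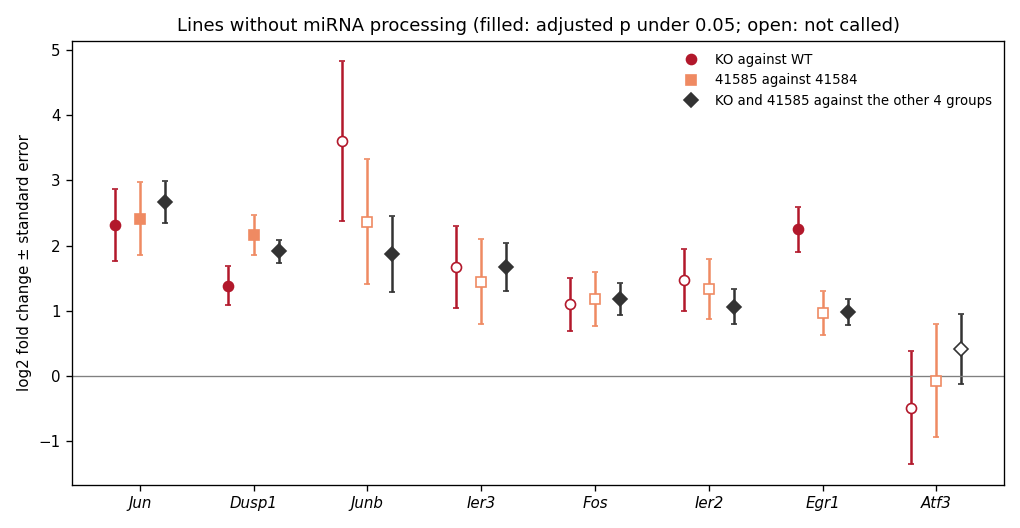
Log2 fold changes with standard errors of the 8 tested genes for KO against WT, 41585 against 41584, and both lines pooled against the other groups; filled symbols mark genes called at an adjusted p under 0.05. Jun lies at 2.31 to 2.67 in all 3 comparisons, Egr1 is larger in KO against WT (2.25) than in 41585 against 41584 (0.96), and Atf3 lies on both sides of 0.

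Jun, whose protein pairs with FOS proteins to form AP-1, lies on chromosome 4 at 95049034 to 95052222 (GRCm38) and had 22.2 and 19.1 CPM in KO and 23.3 and 13.8 CPM in 41585. It had 3.09 and 1.69 CPM in SOM, 4.99 and 1.87 CPM in 41584, 2.99 and 2.10 CPM in 41589 and 6.03 and 2.41 CPM in WT. The lowest of the 4 KO and 41585 libraries was more than double the highest of the other 8. The log2 fold was 2.31 ± 0.55 for KO against WT (SE, n = 2 each, edgeR adjusted p = 0.0187) and 2.41 ± 0.56 for 41585 against 41584 (adjusted p = 0.018). Pooled, it was 2.67 ± 0.32 (adjusted p = 6.95e-05). The call for KO against WT was lost without any one of its libraries, with adjusted p of 0.127 and 0.0627 without KO replicate 1 and 2 and of 0.0552 and 0.125 without WT replicate 1 and 2. The fold then ranged from 1.78 to 3.09. The call for 41585 against 41584 was lost without 41585 replicate 1 (0.123) and without 41584 replicate 2 (0.0699), whereas without 41584 replicate 1 the fold was 3.30. In the pooled comparison it held without each of the 12 libraries, with folds of 2.47 to 2.89. An annotated gene on the opposite strand, Junos, had 49 reads against 802 for Jun, and the use of strand in counting is not stated.

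Fos, the founding partner of JUN in AP-1, on chromosome 12 at 85473890 to 85477273, had 15.7 and 16.8 CPM in KO and 13.1 and 12.99 CPM in 41585. The other libraries held 3.94 and 6.76 CPM (SOM), 6.78 and 4.66 CPM (41584), 6.63 and 7.94 CPM (41589) and 9.90 and 5.36 CPM (WT). The KO and 41585 libraries again lay above all others, with WT replicate 1 the nearest. The pooled log2 fold was 1.18 ± 0.24 (edgeR adjusted p = 0.00294). The pairs taken apart gave 1.10 ± 0.41 for KO against WT (adjusted p = 0.093) and 1.18 ± 0.42 for 41585 against 41584 (adjusted p = 0.0756), and neither passed.

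Fosb, a paralogue of Fos and also an AP-1 subunit, had 7 and 5 reads in KO and 10 and 8 reads in 41585. SOM had 0 reads in both libraries, 41584 had 3 in each, 41589 had 4 and 2, and WT had 0 and 1. Every KO and 41585 library was above every other library in CPM, at 0.770 to 1.17 CPM in KO and 41585 against 0 to 0.466 CPM elsewhere. Summed reads gave a ratio of 4.56 for KO and 41585 against the other groups (95% interval 2.31 to 9.52, counting error only) and of 12.5 for KO against WT (12 reads against 1, interval 1.84 to 533). For 41585 against 41584 the ratio was 2.69 (interval 1.02 to 8.29).

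Junb, a JUN paralogue that in textbook accounts activates AP-1 targets less strongly than JUN, had 2.32 and 1.23 CPM in KO and 4.33 and 2.32 CPM in 41585. It had 0.857 and 1.69 CPM in SOM, 0.639 and 0.622 CPM in 41584, 0.321 and 2.92 CPM in 41589 and 0.309 and 0 CPM in WT, where only 2 reads were counted. Replicate 2 of 41589 and of SOM reached into the range of KO and 41585. The pooled log2 fold was 1.87 ± 0.58 (edgeR adjusted p = 0.0262). That call was lost without 41585 replicate 1 (0.107), KO replicate 1 (0.142), SOM replicate 1 (0.0531) or WT replicate 2 (0.0595). For KO against WT, 27 reads against 2 gave a ratio of 14.0 (95% counting interval 3.52 to 122), and edgeR did not call it (adjusted p = 0.0703). For 41585 against 41584 the ratio of 55 to 9 reads was 5.49 (interval 2.69 to 12.6), also not called (adjusted p = 0.112). Prdx2, which overlaps Junb on the opposite strand, had 8082 reads against 142 for Junb.

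Dusp1, a phosphatase that inactivates MAP kinases and so limits the signal that induces it, lies on chromosome 17 at 26505590 to 26562128. It had 65.4 and 60.0 CPM in KO and 75.3 and 58.3 CPM in 41585. The other libraries held 14.2 and 12.8 CPM (SOM), 19.4 and 10.3 CPM (41584), 17.1 and 19.2 CPM (41589) and 23.8 and 24.1 CPM (WT). No KO or 41585 library overlapped any other, and among the other groups WT was highest. The log2 fold was 2.16 ± 0.31 for 41585 against 41584 (edgeR adjusted p = 0.00187), a call that held without each of the 4 libraries in turn. It was 1.39 ± 0.30 for KO against WT (adjusted p = 0.0122), a call lost without each of the 4: 0.11 and 0.0514 without KO replicate 1 and 2, and 0.109 and 0.0696 without WT replicate 1 and 2, although the fold stayed at 1.33 to 1.49. Pooled, the fold was 1.91 ± 0.17 (adjusted p = 9.29e-06) and held without each of the 12 libraries. The 2 pairs did not differ in a test of the difference itself that passed the threshold (-0.77 ± 0.42, adjusted p = 0.9995). Ergic1 overlaps Dusp1 on the opposite strand, with 7738 reads against 3136.

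Jun, Fos, Fosb and Dusp1 were thus the 4 of 9 genes with no overlap between the 4 KO and 41585 libraries and the other 8. Fosb was not tested, so 3 of the 8 tested genes lay higher in this way, as did 10.2% of all tested genes.

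Egr1, the zinc finger factor often used as a readout of ERK signalling, differed from these 4. It lies on chromosome 18 at 34859823 to 34864984 and had 139 and 123 CPM in KO and 142 and 103 CPM in 41585. It had 102 and 105 CPM in SOM, 38.9 and 86.9 CPM in 41584 and 72.7 and 113 CPM in 41589, against 26.9 and 28.1 CPM in WT. The WT libraries were the lowest, and replicate 2 of SOM and of 41589 lay above the lower 41585 library. Between KO and WT the log2 fold was 2.25 ± 0.35 (edgeR adjusted p = 0.00242), a call that held without each of the 4 libraries in turn (2.16 to 2.38, adjusted p 0.0106 to 0.0432). Between 41585 and 41584 it was 0.96 ± 0.34 and not called (adjusted p = 0.0729), with 0.49 without 41584 replicate 1 (adjusted p = 0.276) and 1.66 without 41584 replicate 2, which made it a call (adjusted p = 0.0131). The difference between the pairs was 1.28 ± 0.48, with an unadjusted p of 0.0183 and an adjusted p of 0.9995 in the same edgeR fit. It was 0.59 without 41584 replicate 2. Pooled, Egr1 was higher by 0.99 ± 0.20 (adjusted p = 0.00249), and the call held without each of the 12 libraries.

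**Figure D3:**
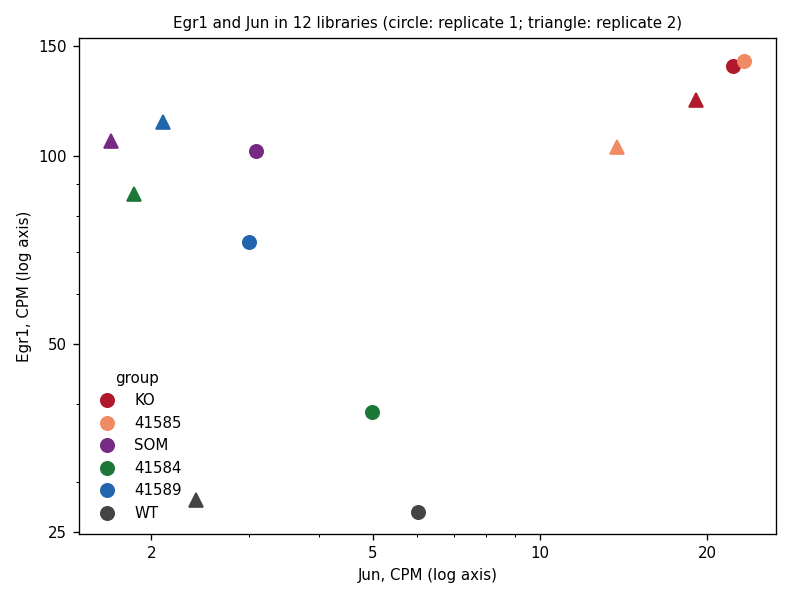
CPM of Egr1 against CPM of Jun in each of the 12 libraries, both on log axes, coloured by group. The KO and 41585 libraries lie apart along the Jun axis, while along the Egr1 axis SOM, 41584 and 41589 reach from 38.9 to 113 CPM, above the 2 WT libraries at 26.9 and 28.1 CPM.

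Ier2, a small nuclear protein of the serum response, had 18.8 and 12.5 CPM in KO and 26.2 and 25.3 CPM in 41585. It had 16.6 and 6.01 CPM in SOM, 10.9 and 9.48 CPM in 41584, 8.87 and 16.9 CPM in 41589 and 5.72 and 5.58 CPM in WT. Like Egr1, it was lowest in the WT libraries, and KO replicate 2 lay inside the range of the other groups. The pooled log2 fold was 1.07 ± 0.27 (edgeR adjusted p = 0.01), lost without KO replicate 1 (0.0757). The pairs gave 1.47 ± 0.48 for KO against WT (adjusted p = 0.0588) and 1.34 ± 0.46 for 41585 against 41584 (adjusted p = 0.0707), neither called, whereas DESeq2 called both (adjusted p = 0.0192 and 0.036).

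Ier3, a stress-induced gene known to affect cell survival and ERK signalling, had 10.002 and 14.2 CPM in KO and 10.5 and 3.34 CPM in 41585. It had 2.57 and 1.32 CPM in SOM, 3.32 and 1.71 CPM in 41584, 3.74 and 3.38 CPM in 41589 and 1.86 and 5.58 CPM in WT. The 2 libraries of 41585 differed widely, and replicate 2 lay among the other groups. The pooled log2 fold was 1.67 ± 0.37 (edgeR adjusted p = 0.00464), lost without 41585 replicate 1 (0.0598). Neither pair passed, at 1.67 ± 0.63 for KO against WT (adjusted p = 0.0954) and 1.45 ± 0.65 for 41585 against 41584 (adjusted p = 0.145). With 1 library left out, the fold ranged from 1.11 to 2.69 for KO against WT and from 0.38 to 2.02 for 41585 against 41584, and was not called. Ier3 is a gene with both a seed match and AU-rich words in its 3' UTR.

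Atf3, a stress-induced factor that can pair with JUN, had 7.93 and 4.93 CPM in KO and 11.5 and 3.99 CPM in 41585. It had 5.999 and 1.32 CPM in SOM, 13.9 and 2.18 CPM in 41584, 4.60 and 1.28 CPM in 41589 and 12.8 and 5.36 CPM in WT. The spread within groups was as wide as that between them, and in all 6 groups the library numbered 1 held more Atf3 than the library numbered 2, as it did for Jun. The pooled log2 fold was 0.41 ± 0.53 (edgeR adjusted p = 0.578), and the fold was -0.48 ± 0.87 for KO against WT and -0.07 ± 0.86 for 41585 against 41584 (adjusted p = 0.742 and 0.964). The highest libraries, 41584 replicate 1 and WT replicate 1, also held 15.0 and 15.9 CPM of Ddit3, a gene of the ATF4 stress response, against 2.44 to 7.49 CPM in the 4 libraries of KO and 41585. WT replicate 2, with 17.6 CPM of Ddit3, was not among the high Atf3 libraries. The part of this in the Atf3 values was not tested.

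SOM, 41584 and 41589 were then compared with KO, to ask which differences from KO accompany the sequence put back. These comparisons share the KO libraries with each other and with KO against WT. In SOM, 4 of the 8 genes were called lower than in KO, where 4.6% of tested genes were called lower. They were Jun (-3.10 ± 0.59, edgeR adjusted p = 0.00977), Ier3 (-2.62 ± 0.68, adjusted p = 0.0414), Dusp1 (-2.21 ± 0.31, adjusted p = 0.00222) and Fos (-1.60 ± 0.43, adjusted p = 0.0434). The Fos and Ier3 calls were lost without any one of the 4 libraries, and Jun without SOM replicate 1 (0.0793), SOM replicate 2 (0.0883) or KO replicate 1 (0.0719). Dusp1 was called without each of them. Egr1 in SOM was 103.6 ± 2.54 CPM, against 131 ± 11.6 CPM in KO (SD, n = 2 each), a log2 fold of -0.34 ± 0.33 that was not called (adjusted p = 0.635).

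In 41584, 3 genes were called lower than in KO, Jun (-2.57 ± 0.56, edgeR adjusted p = 0.0162), Dusp1 (-2.07 ± 0.31, adjusted p = 0.00216) and Fos (-1.50 ± 0.42, adjusted p = 0.0473), where 4.98% of tested genes were. Fos was lost without any one of the 4 libraries. Jun was lost without 41584 replicate 2 (0.0592), KO replicate 1 (0.114) or KO replicate 2 (0.0553), and its fold without 41584 replicate 1 was -3.46. Egr1 was at -1.06 ± 0.34 (adjusted p = 0.0769), and at -1.75 without 41584 replicate 2, where it was called (adjusted p = 0.0105). In 41589, Jun (-3.02 ± 0.57, adjusted p = 0.00775) and Dusp1 (-1.79 ± 0.30, adjusted p = 0.00453) were called lower, where 4.65% of tested genes were. Both calls were lost without KO replicate 1 (0.0654 and 0.0521). Egr1 in 41589 stood at -0.49 ± 0.33 against KO (adjusted p = 0.436).

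**Figure D4:**
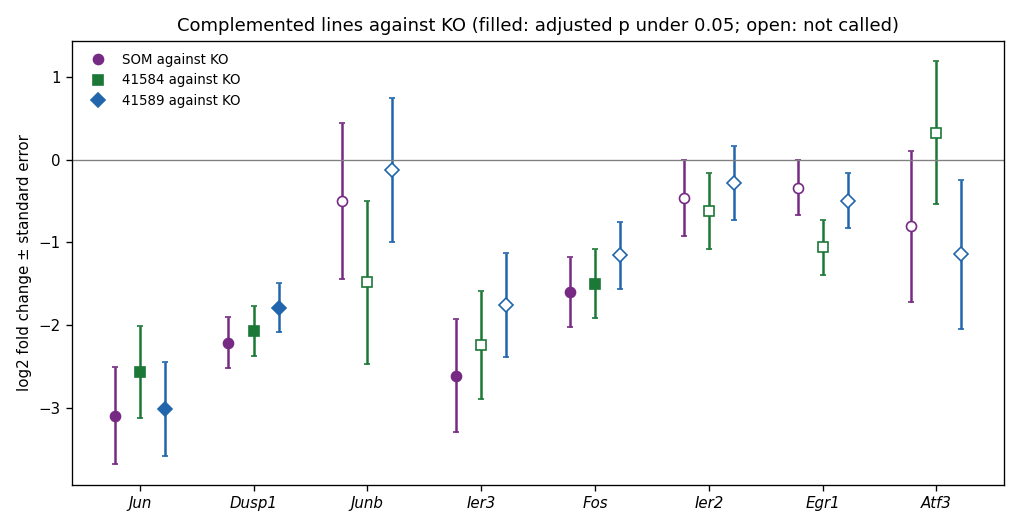
Log2 fold changes with standard errors of the 8 tested genes for SOM, 41584 and 41589 against KO; filled symbols mark genes called at an adjusted p under 0.05. Jun and Dusp1 lie between -1.79 and -3.10 in the 3 lines, and Egr1 lies between -0.34 and -1.06.

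In 41585 none of the 8 genes was called against KO by edgeR, none had an unadjusted p under 0.05, and DESeq2 called none of them. Over all tested genes edgeR called 0 and DESeq2 1. The log2 folds of 41585 against KO were -0.16 ± 0.51 for Jun, 0.09 ± 0.29 for Dusp1 and -0.10 ± 0.33 for Egr1.

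Against WT, no immediate early gene and none of the 14629 tested genes was called by edgeR in SOM, 41584 or 41589. At an unadjusted p under 0.05 there were 3 of the 8 genes in SOM, 2 in 41584 and 3 in 41589, where 21.7%, 4.83% and 11.8% of tested genes had one in SOM, 41584 and 41589. DESeq2 called 1 of the 8 in SOM, 0 in 41584 and 1 in 41589, Egr1 in both cases (adjusted p = 0.000187 and 0.00181). Over all genes DESeq2 called 681 in SOM, 28 in 41584 and 75 in 41589. All 6 libraries of these lines lay above both WT libraries for Egr1, Ier2 and Junb, by a narrow margin for Ier2 (6.01 CPM in SOM replicate 2, against 5.72 CPM in WT replicate 1) and for Junb (0.321 CPM in 41589 replicate 1, against 0.309 CPM in WT replicate 1). Taking each line alone, 27.9% of all tested genes had both libraries above both WT libraries in SOM, 14.4% in 41584 and 18.5% in 41589. The share with all 6 libraries above WT was not counted. The log2 fold of Egr1 against WT was 1.91 ± 0.35 in SOM (edgeR adjusted p = 0.121), 1.19 ± 0.34 in 41584 (adjusted p = 0.883) and 1.75 ± 0.35 in 41589 (adjusted p = 0.286). Leaving replicate 2 of 41584 and of 41589 out of the fit gave 1.92 in SOM (adjusted p = 0.00127), 0.50 in 41584 (adjusted p = 0.756) and 1.41 in 41589 (adjusted p = 0.137). Without replicate 1, the value was 1.66 in 41584 (adjusted p = 0.0437) and 2.04 in 41589 (adjusted p = 0.0189). The libraries that stood apart on the second component, both of SOM and replicate 2 of 41584 and 41589, had 86.9 to 113 CPM of Egr1, against 38.9 and 72.7 CPM in replicate 1 of 41584 and 41589. The pluripotency factor Pou5f1 was at 140 and 322 CPM in WT, the lowest and the third lowest of the 12 libraries. The 10 embryonic stem cell markers together were not low in WT, at a summed 6680 and 7262 CPM. Over SOM, 41584, 41589 and WT these sums ran from 6064 to 7262 CPM. The part of the second component or of Pou5f1 in the Egr1 values was not tested.

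Taken line by line, 31.9% of tested genes had both libraries below both WT libraries in SOM, 16.2% in 41584 and 21.8% in 41589. Dusp1 ran this way, opposite to Egr1, in all 6 libraries of SOM, 41584 and 41589. Its log2 fold against WT was -0.83 ± 0.31 in SOM (edgeR adjusted p = 0.172, and 0.0323 without replicate 2 of 41584 and of 41589), -0.68 ± 0.30 in 41584 (adjusted p = 0.883) and -0.40 ± 0.30 in 41589 (adjusted p = 0.577). Between 41589 and 41584, the lines labelled without siRNA processing and as resembling WT, edgeR and DESeq2 called none of the 8 genes, none had an unadjusted p under 0.05, and neither tool called any of the 14629 tested genes. The log2 fold there was 0.57 ± 0.33 for Egr1 and -0.45 ± 0.57 for Jun.

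Other immediate early genes were examined as lists, together with the factors and kinases above them. The lists too were chosen with earlier results of these data known, so their counts are descriptive. Of 19 other immediate early transcription factors 13 were tested, and 7 were higher and 1 lower in KO and 41585 against the other groups (median log2 fold 0.99), beside 17.6% of all tested genes called higher. Fosl2, a further FOS family member, averaged 18.8 ± 1.65 CPM in KO and 2.87 ± 1.66 CPM in WT, with log2 folds of 2.68 ± 0.54 for KO against WT and 2.08 ± 0.55 for 41585 against 41584 (edgeR adjusted p = 0.00919 and 0.0295). Klf2 was higher by 1.53 ± 0.24 and 1.65 ± 0.24 in the same pairs and Klf6 by 1.40 ± 0.26 and 0.87 ± 0.26, all called. Klf4, a pluripotency factor that is also an immediate early gene in other cells, was the member that fell, by 2.56 ± 0.27 and by 2.04 ± 0.26. It averaged 52.8 ± 1.46 CPM in KO and 56.0 ± 7.82 CPM in 41585, against 312 ± 88.8 CPM in WT and 230.1 ± 31.8 CPM in 41584. Jund and Nr4a1 were also among the 7 that were higher.

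Of 26 other immediate early regulators 24 were tested, with 8 higher and 2 lower in the pooled comparison (median 0.24). Over all tested genes 17.6% were called higher and 14.6% lower there. Rhob, a small GTPase, was higher by 2.52 ± 0.40 in KO against WT and by 1.95 ± 0.40 in 41585 against 41584. Trib1, a pseudokinase, was higher by 2.30 ± 0.31 and 1.99 ± 0.31, and Dusp5, a phosphatase of nuclear ERK, by 1.87 ± 0.39 and 1.65 ± 0.39. Zfp36, whose protein binds AU-rich words and promotes decay of such mRNAs, was higher by 1.53 ± 0.38 and 1.42 ± 0.39. Dusp4, another MAP kinase phosphatase, fell by 2.07 ± 0.52 and by 2.44 ± 0.54, and Plk2 fell by 1.65 ± 0.35 and by 1.33 ± 0.35. All of these passed the edgeR test in both pairs. Dusp1 and Dusp5 thus stood higher in KO and 41585 while Dusp4, of the same family, stood lower.

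Targets of SRF and YAP that are not immediate early regulators of transcription were tested in 9 of 12 cases. In KO and 41585 against the other groups 7 were higher and 0 lower (median 1.04), where 17.6% of all tested genes were called higher. Set against WT, the list median was also above 0 in SOM (1.25), 41584 (0.66) and 41589 (0.91), where edgeR called none of its genes. For KO against WT the median was 1.66. Ccn1, a secreted matrix protein, averaged 30.9 ± 6.13 CPM in KO and 30.9 ± 0.0107 CPM in 41585, against 7.53 ± 1.64 CPM in 41584 and 2.75 ± 0.603 CPM in WT. Its log2 fold was 3.47 ± 0.38 for KO against WT (edgeR adjusted p = 0.000382) and 2.03 ± 0.35 for 41585 against 41584 (adjusted p = 0.00479). Ccn2 gave 2.04 ± 0.27 and 1.34 ± 0.26, the cytoplasmic actin Actg1 1.71 ± 0.36 and 1.67 ± 0.36, and Tpm1 1.09 ± 0.24 and 0.92 ± 0.25, all called in both pairs. Vcl and Flna, also on the list, were not called, with 0.40 and 0.58 for KO against WT.

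The kinases of the cascade were mostly not called. All 20 were tested, 0 were higher and 3 lower in the pooled comparison (median -0.13), near the 14.6% of all tested genes that were called lower, at adjusted p of 0.0002 for Nras, 0.0171 for Mapk9 and 0.0359 for Mapk8. Nras fell by 1.14 ± 0.22 in KO against WT (edgeR adjusted p = 0.0081) and by 1.22 ± 0.22 in 41585 against 41584 (adjusted p = 0.00682). Of 10 tested factors that act on immediate early promoters, 4 were higher and 1 lower when pooled. Over all tested genes 17.6% were called higher and 14.6% lower. Elk4, an SRF partner, was higher by 1.85 ± 0.29 and 1.21 ± 0.29 in the pairs (adjusted p = 0.00266 and 0.0194), and Crem, whose products include a repressor at cyclic AMP response elements, was lower in the pooled comparison (-0.93 ± 0.25, adjusted p = 0.014). Srf, Mrtfa and Mrtfb were higher in the pooled comparison but were not called in either pair, by 0.81 ± 0.28, 0.68 ± 0.23 and 0.55 ± 0.19 (adjusted p = 0.0444, 0.0382 and 0.0423).

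Among 8 tested AP-1 partners of other families 3 were higher and 0 lower when pooled (median 0.57), Nfe2l2, Mafg and Atf5, and none passed in either pair. Of 12 ATF4 stress response genes 1 was higher, Sesn2, and 2 lower, Asns and Psat1 (median -0.33), of which Asns also passed in 41585 against 41584. Of 11 heat shock genes 2 were higher, Hspb1 and Bag3, and 1 lower, Hspe1 (median 0.25), and none passed in either pair. The 2 of 12 lower in the ATF4 list and the 2 of 11 higher in the heat shock list were near the shares over all tested genes, 14.6% lower and 17.6% higher. The heat shock and ATF4 lists are given beside the 9 genes because handling and nutrient stress also induce immediate early genes. Neuroectoderm markers also stood higher, at a summed 57.2 to 93.8 CPM in KO and 41585 against 25.8 to 46.1 CPM in the other groups, and Nes and Pax6 were called higher in both pairs. Sox1, another of these markers, was lower in the pooled comparison (-1.45 ± 0.43, edgeR adjusted p = 0.0215). Endoderm markers stood at 5.23 to 8.10 CPM in KO and 41585 against 7.12 to 54.2 CPM in the others, mesoderm markers at 4.63 to 6.79 against 7.52 to 11.4 CPM, and trophectoderm markers at 25.5 to 61.6 against 29.9 to 82.6 CPM. The part of these cells in the immediate early values was not tested.

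**Figure D5:**
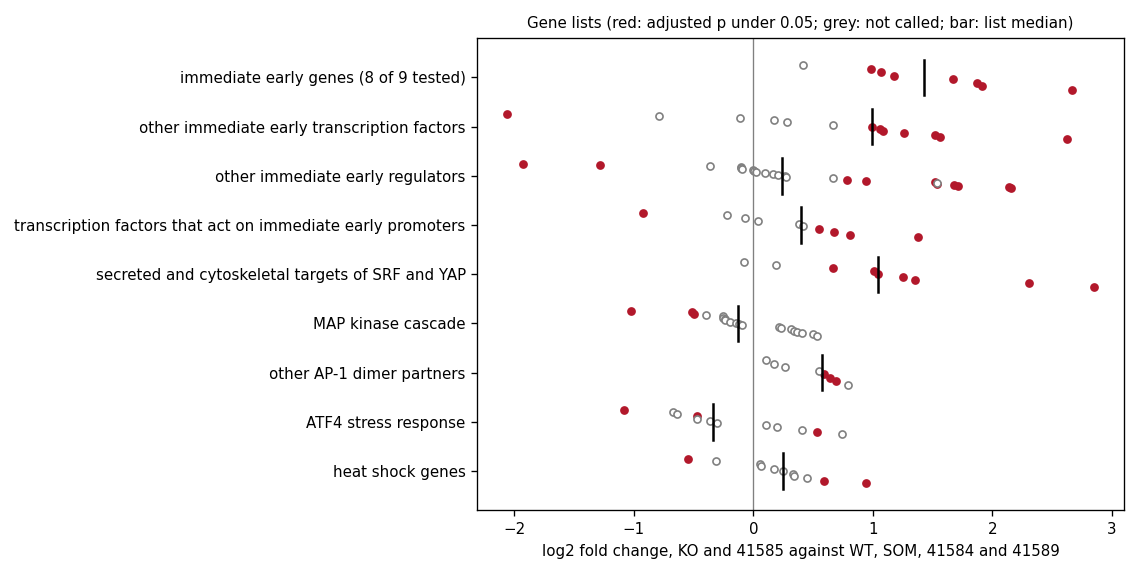
Log2 fold change of each tested gene of each list for KO and 41585 against the other 4 groups; red points were called at an adjusted p under 0.05, and black bars are list medians. The immediate early genes (7 of 8 higher) and the SRF and YAP targets (7 of 9) lie mostly right of 0. The MAP kinase cascade lies around 0, with 0 of 20 higher and 3 lower. Over all tested genes 17.6% were called higher and 14.6% lower. The lists were chosen with earlier results of these data known.

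The patterns of Egr1 and Jun were last matched against other genes, over 9794 genes with a mean of at least 5 CPM, by Pearson correlation of log2 CPM over the 12 libraries, which share groups and depth, so that the values are descriptive. Among the closest to Egr1 were the tRNA-modifying enzyme gene Trmt12 (0.971), Mrc1 (0.959), Dusp27 (0.951) and Naif1 (0.949). Mrc1 had 18.7 and 19.1 CPM in KO and 10.8 and 11.6 CPM in SOM, against 2.63 and 2.95 CPM in WT, so that SOM again lay far above WT. Closest to Jun were Gpt2 (0.974), an alanine transaminase of mitochondria, Parva (0.973), a focal adhesion protein, Dazap2 (0.965), Mdfic (0.965) and Asb8 (0.963). Parva had 91.7 and 74.2 CPM in KO and 77.9 and 67.2 CPM in 41585, against 5.94 to 14.4 CPM in the other 8 libraries, a split without overlap like that of Jun.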

How the data were processed

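Poly(A) RNA libraries were prepared with a reverse-stranded TruSeq protocol, per the labels' protocols. Reads were aligned with STAR 2.4.2a to mm10 (GRCm38), per the submitters' processing notes. How reads were counted, with which annotation and whether by strand, is not stated in those sources. The authors deposited raw counts as whole numbers for 47643 Ensembl genes in each library. GENCODE M21 gave symbols to 47224 of them. Counts were tested as deposited with edgeR 4.0.16 in R 4.3.3 (robust quasi-likelihood, TMM scaling, filterByExpr, a group-means design over all 12 libraries, 6 residual degrees of freedom, common biological coefficient of variation 0.278), with Benjamini-Hochberg adjustment over 14629 genes within each comparison and a call at 0.05. DESeq2 1.42.0, other scalings, no low-count filter, fits of only the groups compared, a replicate block and leaving out libraries were alternatives. CPM uses TMM-scaled totals, and folds are log2 ± SE. Ratios of low counts carry exact 95% intervals for counting error only.

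The members and lists were chosen with earlier results of these data known. Named are the 9 genes, Dicer1, up to 4 genes per list with the smallest pooled adjusted p plus those needed to state what a list did, and the 5 genes of highest correlation with Egr1 and with Jun, of which 1 for Egr1 is not reported here. Vcl, Flna, Pou5f1, Col3a1, Ddit3, Nes, Pax6 and Sox1 were named after their values were seen. The fits were tested on simulated data.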

Additional observations from a re-analysis of the deposited data

How the results depend on the processing

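The number of immediate early genes called moved under several alternatives. The calls over all genes in the same fit follow in brackets. With no low-count filter the immediate early count was 6 for KO against WT (2950), 5 for 41585 against 41584 (3073) and 5 for 41584 against KO (1858). It was 2 for SOM against WT (1345), 1 for 41584 against WT (132) and 2 for 41589 against WT (541). With only the groups compared in the fit it was 6 for KO against WT (4892) and 1 for 41585 against 41584 (403). It was also 1 for 41584 against KO (384) and for SOM against WT (2035). Leaving out replicate 2 of 41584 and of 41589 left 1 library in each of those groups. Calls for KO against WT and for SOM against WT then rose, both among the immediate early genes and over all genes. DESeq2 called 5 for 41584 against KO (1522), 1 for SOM against WT (681) and 1 for 41589 against WT (75). Library totals gave 2 for SOM against KO (759). Leaving out 1 library gave 1 for KO against WT each time, 1 to 2 for 41585 against 41584, SOM against KO and 41584 against KO, 0 to 2 for 41589 against KO and 41589 against WT, 0 to 1 for 41584 against WT and 5 to 7 pooled. Over all genes, calls ranged from 237 to 4892 for KO against WT, 348 to 3149 for 41585 against 41584, 2576 to 7087 pooled, 107 to 2265 for SOM against KO, 203 to 2421 for 41584 against KO, 186 to 1941 for 41589 against KO, 0 to 545 for 41585 against KO, 0 to 2275 for SOM against WT, 0 to 132 for 41584 against WT, 0 to 647 for 41589 against WT, 0 to 3 for 41589 against 41584 and 0 to 69 for the difference between pairs. The cause was not tested.

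The folds that changed sign belonged to genes that were not called. With 1 library left out, the log2 fold of Atf3 ranged from -0.99 to 0.26 for KO against WT, -1.03 to 1.82 for 41585 against 41584, -0.05 to 0.89 pooled and -1.56 to 1.11 for 41584 against KO. With the replicate block it was 0.14 for 41585 against 41584 and -0.05 for 41584 against KO. Against KO, leaving out 1 library gave -1.05 to 0.04 for Junb and -1.38 to 0.09 for Ier2 in SOM, -2.45 to 0.70 for Junb and -0.85 to 0.11 for Ier2 in 41589, and -0.37 to 0.07 for Egr1 in 41585. Of 686 recomputed values 593 kept their direction and side of the threshold. Replicate numbers were not taken to pair libraries, since same-numbered deviations correlated over 0.1 in 5 of 15 pairs of groups (-0.08 to 0.51). With the number as a block the pooled count was 7, that of KO against WT 3 and that of 41584 against KO 4. Results for genes of the lists with libraries left out are not given here. Depth limits Fosb and Junb, with 43 and 142 reads in all.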
